A study of Mus musculus with 15 samples.

Results

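The WNT pathway and its target genes were followed as a set of 48 genes in mouse skin, listed by gene symbol for their known roles; no measured value enters the rule, though the list was drawn up with earlier results of these data known. The set holds 12 WNT ligands, 2 genes of ligand secretion, 10 Frizzled receptors, 3 R-spondin receptors, 9 secreted or surface inhibitors, 6 feedback genes, 5 nuclear factors and the BMP ligand Bmp4. All 48 symbols were found among the 24027 symbols that 4 deposited tables have in common.

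Skin of female mice of the hairless strain SKH1 was sequenced as RNA in 5 groups of 3 libraries. From an age of 6 to 8 weeks the mice were irradiated with ultraviolet B, 500 J/m2 on 5 days of each week over 10 weeks, to give actinic keratoses, which are precancerous skin lesions. The cream, a placebo or GZ21T, was given as 0.25 g on 5 days of each week. Placebo mice gave 4 groups: lesions, the skin around them (perilesional), irradiated skin away from them (non-lesional) and skin without exposure (non-UV). GZ21T mice gave lesional skin. The 4 placebo groups carry the same sample numbers, 1 to 3, in the labels, and whether the authors' model paired them is not stated. The headers name a back skin group, which was taken here, by elimination, as the group without exposure. Body site and exposure thus cannot be told apart in any comparison with it, and no GZ21T skin outside lesions was analysed here. The labels give all groups the same strain and the disease actinic keratoses, and do not say whether the unexposed skin received cream or whether a number stands for 1 mouse sampled at 4 sites. The p-values thus speak only of the spread among libraries, part of which may be technical.

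WNT proteins are lipid-modified by the acyltransferase Porcn, carried to the cell surface by Wls, and bind Frizzled receptors together with LRP co-receptors. In the canonical branch this stabilises beta-catenin, encoded by Ctnnb1, which joins LEF and TCF proteins on DNA and turns on feedback genes such as Axin2, while R-spondins acting on LGR receptors keep Frizzled at the surface by removing the ligases Rnf43 and Znrf3. In skin the pathway is known for the formation and cycling of hair follicles and for upkeep of the basal epidermis.

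The tables give, per gene and comparison, a log2 fold change, a Wald statistic and p-values, and no values per library, so no level of a single sample can be shown and the depth of each library is unknown. The standard error (SE) of each log2 fold change was computed as the fold change over the Wald statistic. A gene was counted as changed, or called, at an adjusted p under 0.05 (DESeq2 Wald test, Benjamini-Hochberg over all genes tested). Of the 48 genes 45 were tested in lesional over non-UV skin, where the median SE was 0.42, against 0.34 over all genes tested. The inhibitor gene Dkk1 has no fold change in any table, Sfrp4 has no adjusted p in any, and Sp5 has none either, with an SE of 6.01 in non-lesional over non-UV skin and values identical to those of 3 other genes. Sfrp4 stood at -3.17 ± 1.19 in lesional over non-UV skin, without a p-value. In bulk skin, fewer cells of a type and less RNA per cell cannot be told apart.

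Lesions of placebo mice were compared with skin that was not exposed, and 3 WNT ligands, 3 feedback genes and Bmp4 were among the genes lower in lesions. Of the 45 genes tested 10 fell and 0 rose: Bmp4, Lgr6, Apcdd1, Axin2, Wnt10b, Wnt3, Wnt7b, Rnf43, Znrf3 and Tcf7l2. Over all genes tested 8.17% were called lower, 10.2% higher and 18.3% in either direction. The median log2 fold change of the WNT genes was -0.25, against 0.08 over all genes tested. Of the WNT genes 57.8% had negative values, against 45.3% of all genes tested. The 35 genes not called ran from Lef1 at -1.69 to Wnt7a at 3.41 in the authors' deposited table.

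**Figure D1:**
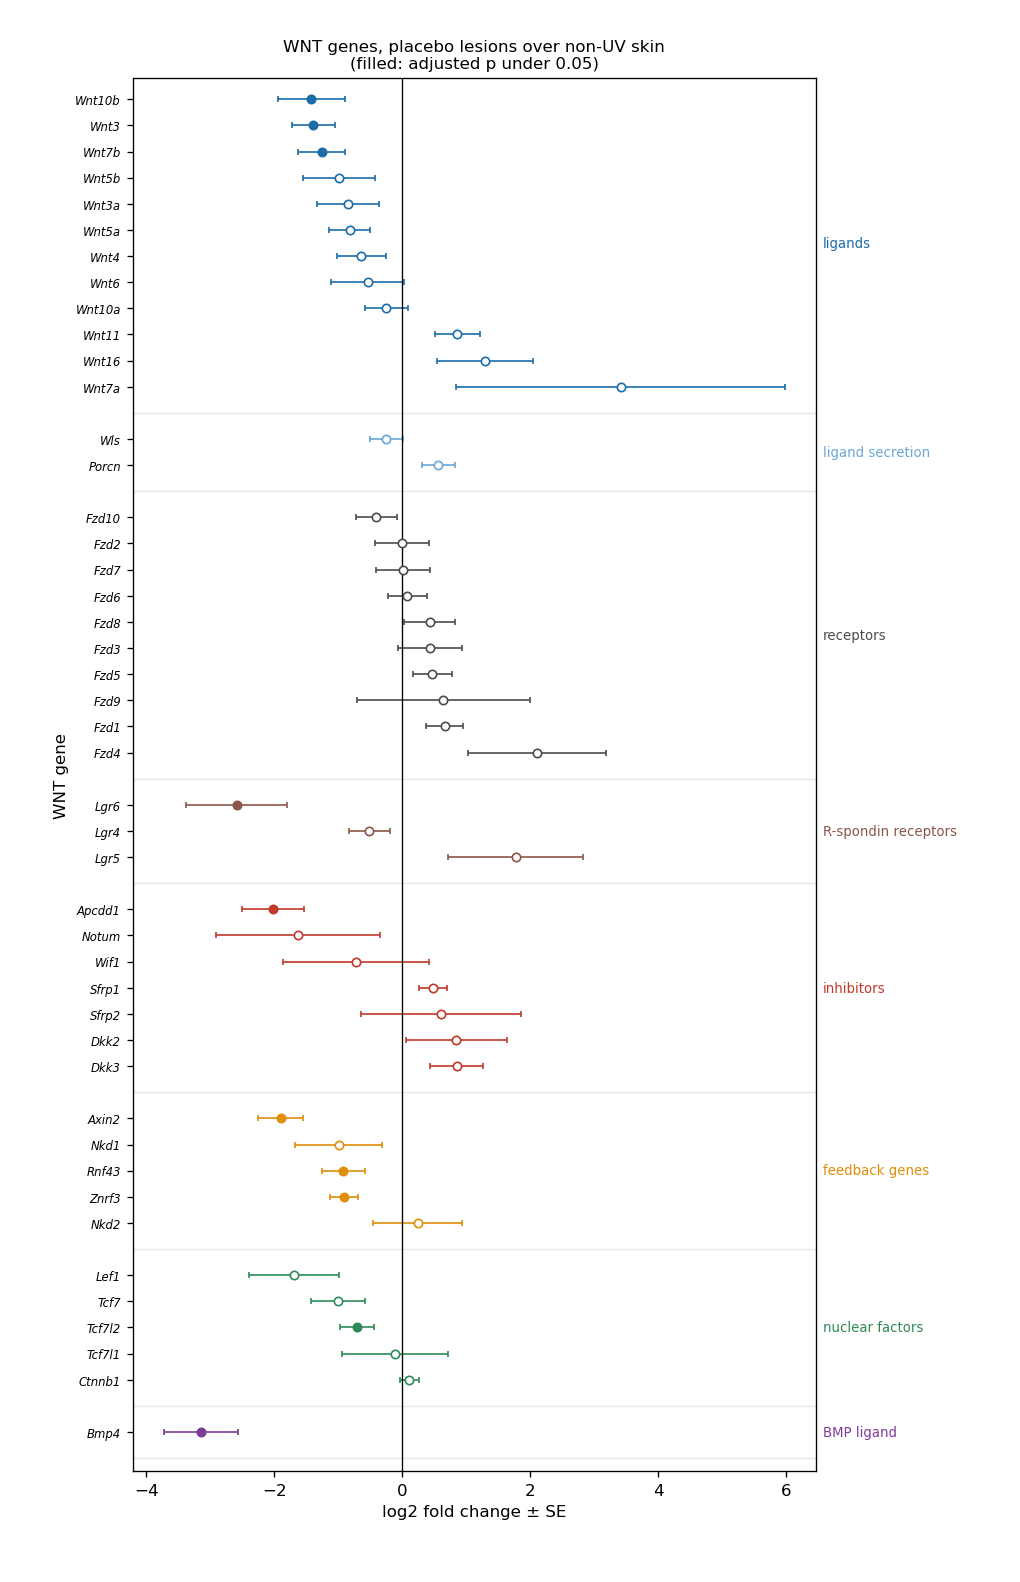
Log2 fold change (x axis, points with bars of 1 SE) of the 45 WNT genes tested in placebo lesional over non-UV skin, by role and ordered by size, with filled points for the genes called. The 10 filled points lie between -3.15 and -0.71, while 8 of the 10 Frizzled receptors lie above 0 (6 after centring on the median of all genes) with none called.

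Of the 12 ligands 3 fell, where 8.17% of all genes tested did, and counts per role were not tested against that share. Wnt10b, a ligand of early hair follicles, was at 37.3% of its non-UV level in the authors' deposited table (log2 fold change -1.42 ± 0.52 SE, adjusted p = 0.039). Wnt3, which acts in the canonical branch, was at 38.2% there in the authors' deposited table (-1.39 ± 0.34, adjusted p = 0.0011), and Wnt7b, an epithelial ligand, was at 41.9% in the same table of the authors (-1.26 ± 0.37, adjusted p = 0.0076). Wnt3a, which also acts in the canonical branch, had a smaller point estimate than Wnt3 with a wider error, -0.85 ± 0.48 (adjusted p = 0.21), by the authors' deposited table. Wnt5a, a ligand of the non-canonical branch, stood at -0.82 ± 0.32 in the authors' deposited table and missed the threshold (adjusted p = 0.054). Wnt10a, the closest relative of Wnt10b, stood at -0.25 ± 0.34 (adjusted p = 0.65), from the authors' deposited table, with a 95% interval from -0.92 to 0.41. Ligands with positive values were Wnt11 at 0.86 ± 0.35 (adjusted p = 0.07), Wnt16 at 1.29 ± 0.75 (adjusted p = 0.22) and Wnt7a at 3.41 ± 2.57 (adjusted p = 0.37), from the authors' deposited table. The remaining ligands Wnt4, Wnt5b and Wnt6 lay between -0.99 and -0.54 and were not called. Of the 12 ligands 9 had negative values, with a median of -0.73, against 45.3% below 0 over all genes tested.

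Genes of ligand release and reception showed no call apart from Lgr6. In the authors' deposited table Porcn stood at 0.56 ± 0.26 (adjusted p = 0.11) and Wls at -0.25 ± 0.26 (adjusted p = 0.53). Of the 10 Frizzled receptors 8 had positive values, with a median of 0.43, and 6 still had once centred on the median of all genes, when Fzd6 and Fzd7 turned. None (0 of 10) was called, with 1 at an unadjusted p under 0.05, as were 4769 of all 15201 genes tested. They ran from Fzd10 at -0.41 ± 0.32 (adjusted p = 0.39) to Fzd4 at 2.1 ± 1.08 (adjusted p = 0.17), from the authors' deposited table. The receptor nearest to the threshold was Fzd1, at 0.66 ± 0.29 (adjusted p = 0.095), from the authors' deposited table. The 3 R-spondin receptors, which mark epithelial stem cells in several organs, differed in their values. Lgr6, found in the upper hair follicle and in the epidermis between follicles, was at 16.6% of its non-UV level in the authors' deposited table (-2.59 ± 0.79, adjusted p = 0.011). Lgr5, a marker of stem cells in the lower follicle, stood at 1.77 ± 1.06 (adjusted p = 0.24) with an interval from -0.31 to 3.84, and Lgr4 at -0.52 ± 0.32 (adjusted p = 0.26), both in the authors' deposited table. The difference between Lgr5 and Lgr6 was not tested.

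Feedback genes, which canonical signalling turns on and which in turn dampen it, held 3 calls among the 5 tested. All 3 were lower, where 8.17% of all genes tested were, and the median of the 5 was -0.92. Axin2, a scaffold of the complex that destroys beta-catenin and a widely used readout of the pathway, was at 26.8% of its non-UV level in the authors' deposited table (-1.90 ± 0.35, adjusted p = 9.4e-06). The ligase genes Znrf3 and Rnf43, whose products remove Frizzled from the surface, stood at 53.4% (-0.91 ± 0.22, adjusted p = 0.0013) and 52.9% (-0.92 ± 0.33, adjusted p = 0.031), from the authors' deposited table. The Dishevelled-binding genes Nkd1 and Nkd2 stood at -0.99 ± 0.68 (adjusted p = 0.32) and 0.24 ± 0.70 (adjusted p = 0.85), from the authors' deposited table, and were not called. Rnf43 overlaps 1110028F11Rik on the same strand of the annotation, which stood at -1.11 ± 0.37 (adjusted p = 0.02), so the counts of both are uncertain where reads were shared.

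Of the secreted or surface inhibitors 1 of 7 tested fell, where 8.17% of all genes tested did. Apcdd1, a membrane inhibitor that is itself a WNT target, was at 24.6% of its non-UV level in the authors' deposited table (-2.02 ± 0.49, adjusted p = 0.0009). Dkk3 stood at 0.85 ± 0.41 (adjusted p = 0.13) and Sfrp1, a decoy that binds WNT proteins, at 0.48 ± 0.22 (adjusted p = 0.11), from the authors' deposited table. Notum, a secreted enzyme that strips the lipid from WNT proteins, stood at -1.63 ± 1.28 (adjusted p = 0.4), from the authors' deposited table. Wif1, Sfrp2 and Dkk2 lay between -0.73 and 0.84 with SEs from 0.79 to 1.25 and were not called. The median of the 7 was 0.48.

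Among the nuclear factors 1 of 5 fell, where 8.17% of all genes tested did. Tcf7l2 was at 61.0% of its non-UV level in the authors' deposited table (-0.71 ± 0.27, adjusted p = 0.046), and the call was lost without the filter on low counts (adjusted p = 0.057). Lef1 and Tcf7, which partner beta-catenin on DNA, had larger negative point estimates, -1.69 ± 0.70 (adjusted p = 0.073) and -1.0 ± 0.42 (adjusted p = 0.076), by the authors' deposited table, and missed the threshold. Tcf7l1, best known as a repressor, stood at -0.11 ± 0.83 (adjusted p = 0.95), from the authors' deposited table. Ctnnb1 stood at 0.11 ± 0.15 (adjusted p = 0.65), from the authors' deposited table. Its 95% interval ran from -0.18 to 0.41 and concerns the transcript, whereas the pathway is known to act on the protein. Bmp4, a bone morphogenetic protein that WNT signalling regulates in several tissues and that the dermal papilla of the hair follicle makes, had the lowest value of the tested set, at 11.3% of its non-UV level in the authors' deposited table (-3.15 ± 0.58, adjusted p = 8.8e-06).

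Another 65 genes of the pathway were looked at beside these, and 3 of the 57 tested rose and 4 fell. These are 12.3% of the list, below the 18.3% called over all genes tested, and the 7.02% lower is near the 8.17% over all genes, so the counts do not set the list apart. The kinase gene Csnk1a1 of the destruction complex rose by 0.81 ± 0.18 (adjusted p = 0.00042), the co-repressor Tle1 by 0.92 ± 0.31 (adjusted p = 0.023) and Myc, a growth regulator known as a target in gut epithelium, by 0.92 ± 0.28 (adjusted p = 0.0093), from the authors' deposited table. Rspo3, an R-spondin, stood at -3.21 ± 1.09 (adjusted p = 0.025), and the TNF receptor family gene Tnfrsf19 at -1.33 ± 0.30 (adjusted p = 0.00035), by the authors' deposited table. The planar polarity genes Prickle1 and Celsr1 stood at -1.44 ± 0.33 (adjusted p = 0.00051) and -1.06 ± 0.33 (adjusted p = 0.013), from the authors' deposited table. The median over the 57 was -0.15.

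Markers of other skin compartments were looked at in the same comparison, where 10.2% of all genes tested were called higher and 8.17% lower. The counts per list were not tested against these shares. All 20 hair shaft and inner root sheath genes tested had negative values, with a median of -2.47 and 4 called lower, among them the hair cortex cadherin Dsg4 at -3.35 ± 0.82 (adjusted p = 0.0012). For the 12 dermal papilla and dermal sheath genes the median was 0.09, and 2 rose while Rspo3, which stands in both lists, fell. The 9 hair follicle stem cell and outer root sheath genes had a median of -0.32, and 1 rose and 1 fell, the latter Krt15 at -2.78 ± 0.46 (adjusted p = 4.7e-07). In 7 basal keratinocyte genes, with a median of -0.15, 1 rose and 2 fell, and in 11 dermal fibroblast genes, with a median of 0.98, 1 rose. Of 6 endothelial genes 4 rose (median 2.76), and of 10 sebaceous gland genes 4 rose (median 1.33). Of 6 adipocyte genes 1 rose (median -1.71), and of 8 skeletal muscle genes (median 1.95) 0 were called, with 0 at an unadjusted p under 0.05. Of 6 suprabasal keratinocyte genes 2 fell (median -0.56), and of 5 leukocyte genes 1 rose and 1 fell (median 0.26). The part of these lists in the lower WNT genes was not tested.

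At an adjusted p under 0.01, where 4.12% of all genes tested were called lower, 6 of the 10 were still called: Axin2, Bmp4, Znrf3, Wnt3, Wnt7b and Apcdd1. At 0.1, with 11.2% of all genes lower, 13 were lower, Lef1, Tcf7 and Wnt5a joining, and 2 were higher, Wnt11 and Fzd1, against 13.8% of all genes. When the null spread was taken from the genes themselves, 0 of the 10 kept the call, and 1 of the 15201 genes was lower and 13 higher. Over all genes 1543 were higher and 1242 lower, a split that centring on the median turned to 1244 higher and 1607 lower, with 11 WNT genes lower.

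The start regions of 4 genes are shown because canonical signalling acts on target genes through LEF and TCF proteins bound to DNA, whose recognition sequence has the core CTTTGA or CTTTGT. Axin2, Bmp4 and Wnt3 were called lower in lesions, and the Lef1 window, at a start inside the gene, is shown because it holds the core, which the other 3 of the 4 Lef1 windows do not. Each line gives the 250 bases before the first transcribed base, 5′ to 3′ on the gene's own strand, from RefSeq on build GRCm38.p6, with matches to either core on either strand in capitals. The windows are chr11:108920099-108920348 (plus strand) for Axin2, chr14:46390670-46390919 (minus strand) for Bmp4, chr11:103773925-103774174 (plus strand) for Wnt3 and chr3:131156044-131156293 (plus strand) for Lef1.
Axin2: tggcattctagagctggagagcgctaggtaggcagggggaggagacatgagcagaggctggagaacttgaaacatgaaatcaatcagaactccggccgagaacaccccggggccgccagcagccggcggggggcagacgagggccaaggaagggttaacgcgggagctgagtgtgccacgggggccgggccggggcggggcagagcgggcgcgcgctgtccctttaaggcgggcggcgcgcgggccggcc
Bmp4: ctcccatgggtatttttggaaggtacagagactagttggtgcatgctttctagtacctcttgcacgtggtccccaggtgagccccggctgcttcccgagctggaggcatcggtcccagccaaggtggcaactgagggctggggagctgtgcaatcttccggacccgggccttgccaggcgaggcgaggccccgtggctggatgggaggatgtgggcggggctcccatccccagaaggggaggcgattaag
Wnt3: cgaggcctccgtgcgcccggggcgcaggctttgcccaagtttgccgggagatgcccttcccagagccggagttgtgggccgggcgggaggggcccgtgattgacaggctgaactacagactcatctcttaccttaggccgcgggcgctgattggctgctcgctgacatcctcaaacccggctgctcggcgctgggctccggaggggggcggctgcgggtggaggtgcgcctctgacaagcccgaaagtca
Lef1: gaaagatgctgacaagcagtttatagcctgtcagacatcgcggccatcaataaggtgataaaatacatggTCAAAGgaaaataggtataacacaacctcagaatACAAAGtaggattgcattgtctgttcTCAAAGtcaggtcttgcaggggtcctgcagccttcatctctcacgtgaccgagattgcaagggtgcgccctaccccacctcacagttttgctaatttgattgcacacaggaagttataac

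The windows of Axin2 and Bmp4 hold neither core. That of Wnt3 holds none before the first base, and 1 CTTTGT starts 18 bases after it. In the Lef1 window CTTTGA starts 180 and 120 bases before the first base and CTTTGT 146 bases before it, all on the other strand. The Axin2 and Wnt3 windows are rich in CpG, with 24 and 22 CpG among 250 bases, against 11 for Bmp4 and 5 for Lef1. RefSeq windows of 300 bases, 250 before and 50 after the start, were found for 33 of the 48 genes. CTTTGA was in 6 of the 33, or 18.2%, and in 18.2% of all genes with a window. CTTTGT was in 9 of the 33, or 27.3%, against 21% of all genes. Of the 10 genes lower in lesions 7 have a window, with CTTTGA in 0 and CTTTGT in 2. The 43 windows of the WNT genes had a median of 23 CpG, against 7 over all 32851 windows.

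The same 48 genes were then followed through irradiated skin. In non-lesional over non-UV skin 0 of 43 tested were called by the DESeq2 Wald test, while 1.66% of all genes tested were called. An unadjusted p under 0.05 was found for 8 of the 43, against 1415 of all 14124 genes tested. Negative values prevailed: 35 of the 43 were below 0, with a median of -0.37, against 52.1% below 0 and a median of -0.02 over all genes tested. The lowest values among the 43 were those of Wif1, a secreted inhibitor, at -1.70 ± 1.19 (adjusted p = 0.74) and Lef1 at -1.64 ± 0.70 (adjusted p = 0.33), from the authors' deposited table. Outside the 43, Notum, which has no adjusted p here, lay lower at -3.88 ± 1.64 (unadjusted p = 0.018 by the Wald test). Among the ligands Wnt10b stood at -1.21 ± 0.52 (adjusted p = 0.34) and Wnt5a at -0.87 ± 0.32 (adjusted p = 0.19), from the authors' deposited table. At the upper end were Fzd4 at 1.57 ± 1.09 (adjusted p = 0.73) and Porcn at 0.71 ± 0.26 (adjusted p = 0.17), from the authors' deposited table. All 5 feedback genes and all 5 nuclear factors tested had negative values, from -1.19 for Nkd1 to -0.24 for Znrf3 and from -1.64 for Lef1 to -0.18 for Ctnnb1. Hair shaft and inner root sheath genes had a median of -2.09, with 0 of 20 called and 4 at an unadjusted p under 0.05. Dermal papilla genes had a median of -1.32 and adipocyte genes one of -1.64, with 0 called. Medians above 0 were those of skeletal muscle (1.83), endothelial (0.64), suprabasal keratinocyte (0.45) and leukocyte genes (0.04). By the same Wald test Krt15 fell, at -2.0 ± 0.46 (adjusted p = 0.003), as did the sebaceous gene Plin2, at -1.72 ± 0.45 (adjusted p = 0.016). The suprabasal gene Krtdap rose, at 0.88 ± 0.2 (adjusted p = 0.0029), and so did the leukocyte gene Cd8a, at 2.94 ± 0.69 (adjusted p = 0.0037). The part of these lists in the WNT values was not tested.

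In perilesional over non-lesional skin 0 of 45 genes were called by the DESeq2 Wald test, with 0.112% of all genes called. At an unadjusted p under 0.05 there were 8 of the 45, against 1190 of all 15201 genes tested. The median was 0.08, against 0.03 over all genes tested. Bmp4 at -1.41 ± 0.57 (adjusted p = 0.47), Lef1 at -1.29 ± 0.75 (adjusted p = 0.71), Lgr6 at -1.21 ± 0.79 (adjusted p = 0.77) and Wnt10b at -1.15 ± 0.58 (adjusted p = 0.62) had the lowest values in the authors' deposited table. Axin2 stood at -0.75 ± 0.35 (adjusted p = 0.59), from the authors' deposited table, the lowest of the feedback genes. Lgr5 had the highest value, 2.64 ± 1.09 (adjusted p = 0.48), by the authors' deposited table, followed by Wnt7a at 2.48 ± 2.60 and the inhibitor Dkk2 at 1.5 ± 0.82 (adjusted p = 0.68). All 7 inhibitors tested had positive values with a median of 0.37, and 0 had an unadjusted p under 0.05. Over all genes tested 46.8% were below 0. Of 10 Frizzled receptors 8 had positive values with a median of 0.34, led by Fzd3 at 0.90 ± 0.50 (adjusted p = 0.69), from the authors' deposited table. The lowest p among the 10 was that of Fzd1, at 0.84 ± 0.29 (adjusted p = 0.32), also from the authors' deposited table. Of 20 hair shaft genes, with a median of -4.21, 1 fell and 16 had an unadjusted p under 0.05, and of 10 sebaceous gland genes, with a median of 2.28, 3 rose. Dermal fibroblast genes had a median of 0.92. The part of these lists in the WNT values was not tested.

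Lesional over perilesional skin was derived from 3 of the tables, and 0 of 43 genes were called (normal tails, Benjamini-Hochberg over 14121 genes, 0.68% of which were called). An unadjusted p under 0.05 was found for 2 of the 43, against 1568 of the 14121. The 2 were Wnt3 at -0.82 ± 0.34 (adjusted p = 0.31) and Apcdd1 at -1.04 ± 0.49 (adjusted p = 0.39). The highest values among the 43 were those of Wnt16, at 1.3 ± 0.74 (adjusted p = 0.51), and Lef1, at 1.24 ± 0.74 (adjusted p = 0.55). Axin2 stood at -0.53 ± 0.35 (adjusted p = 0.6), with a 95% interval from -1.23 to 0.16, and Bmp4 at -0.63 ± 0.60 (adjusted p = 0.77). The median over the 43 was -0.12, against 0.05 over all genes tested, while hair shaft genes had a median of 3.46, with 0 of 20 called and 13 at an unadjusted p under 0.05. Their part in the WNT values was not tested. None of the 10 genes called in lesional over non-UV skin was called in any of the 3 steps between those groups.

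**Figure D2:**
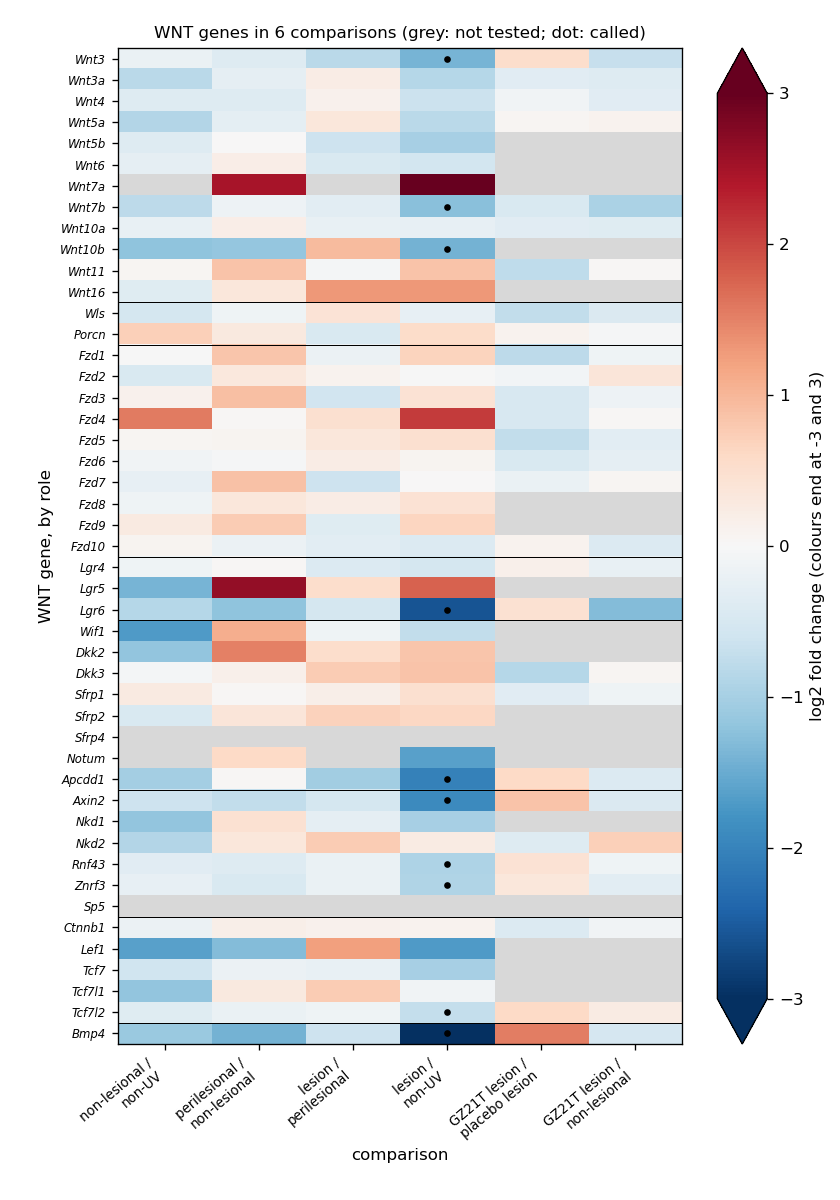
Log2 fold change (colour, blue lower and red higher) of the 47 WNT genes that have one, in rows by role, in 6 comparisons in columns, with grey for genes not tested and dots for genes called. The 10 dots all stand in the column of lesional over non-UV skin.

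Set against non-UV skin, the steps added up differently from gene to gene. For perilesional and GZ21T-treated skin the values are sums of deposited fold changes with an upper bound of the SE, described without a test, and comparisons that meet in a group share its libraries. Axin2 was at 65.5% of the non-UV level in non-lesional skin, 38.8% in perilesional skin and 26.8% in placebo lesions. Bmp4 was at 46.4%, 17.4% and 11.3% in the same order, and Lgr6 at 55.3%, 23.9% and 16.6%. The ligase gene Znrf3 was at 84.4%, 61.5% and 53.4%, and Rnf43 at 79.0%, 60.6% and 52.9%. Wnt3 was at 87.8%, 67.4% and 38.2%, so most of its drop on the log scale lay between perilesional skin and lesions. Apcdd1 was at 49.0%, 50.5% and 24.6%, with no drop between non-lesional and perilesional skin. Wnt7b was at 58.4%, 52.3% and 41.9%, and Tcf7l2 at 77.6%, 67.0% and 61.0%. Wnt10b was lowest in perilesional skin, at 43.4%, 19.5% and 37.3%, and so was Lef1, at 32.1%, 13.1% and 31.0%. Lgr5 went from 38.0% to 236.0% and 340.0%, with bounds of the SE up to 1.57 on the log2 scale. Ctnnb1 lay between 88.1% and 108.0% in the 3 placebo groups and at 81.6% in GZ21T lesions. In GZ21T lesions the summed levels of the 10 genes called were 48.4% for Axin2, 32.7% for Bmp4, 22.6% for Lgr6, 36.9% for Apcdd1 and 54.7% for Wnt3. They were 71.9% for Rnf43, 68.2% for Znrf3 and 92.3% for Tcf7l2. Wnt7b, at 30.4%, had a point estimate below that of placebo lesions, and Wnt10b, at 37.8%, one close to it. None of the single steps was called, so the order of neighbouring groups is not shown by a test.

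**Figure D3:**
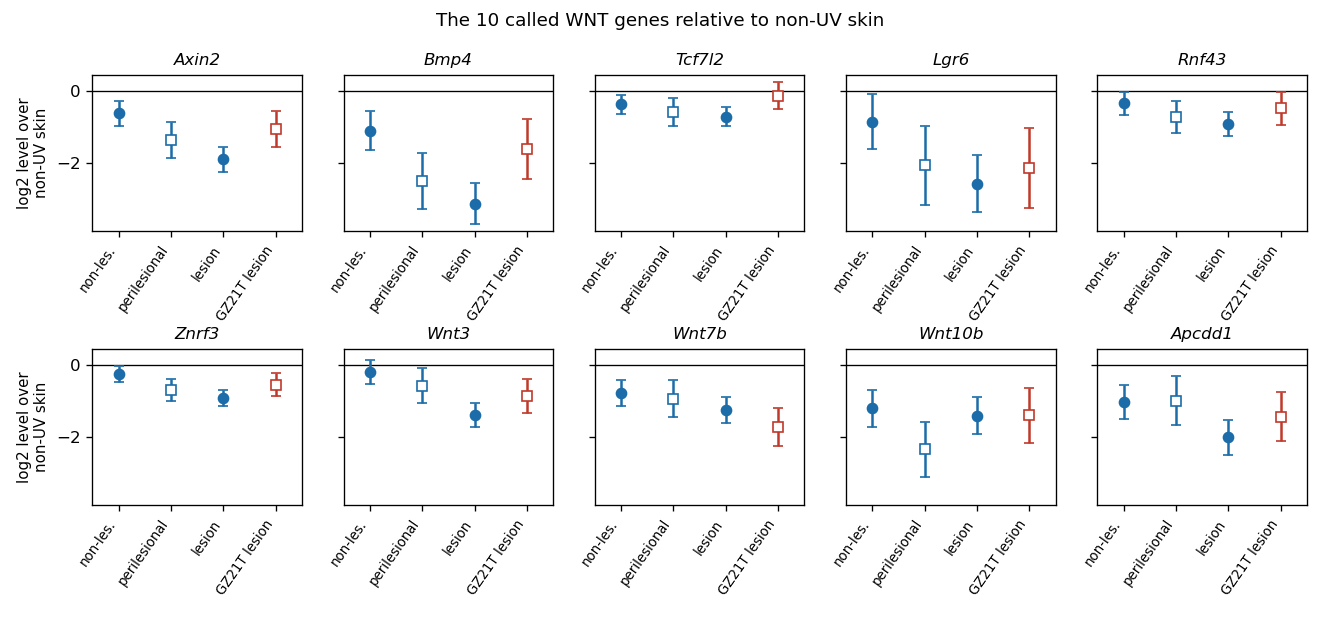
Log2 level over non-UV skin (y axis) of the 10 genes called in lesions, in non-lesional, perilesional and lesional skin of placebo mice (blue) and lesions of GZ21T mice (red). Circles carry the SE and open squares, which are sums of fold changes, an upper bound of it; Bmp4 reaches the lowest value, -3.15 in placebo lesions.

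GZ21T-treated lesions were compared with placebo lesions to ask what the cream did to the pathway. None of the WNT genes passed the test: 0 of 29 tested were called by the DESeq2 Wald test, while 3.61% of all genes tested were called. At an unadjusted p under 0.05 there were 9 of the 29, against 2498 of all 10899 genes tested. The other 19 genes, Lef1, Lgr5 and Wnt10b among them, have no adjusted p in this comparison. The deposited fold changes were turned in sign so that positive values mean higher under GZ21T. The median of the 29 was -0.20, against -0.06 over all 10899 genes tested. Over all genes 143 were higher and 250 lower, which centring on the median turned to 201 higher and 142 lower, with 0 WNT genes called.

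Among the 29 genes tested the highest values belonged to Bmp4 and Axin2. Bmp4 stood at 1.53 ± 0.60 (adjusted p = 0.1), by the authors' deposited table turned in sign, with a 95% interval from 0.36 to 2.71. By the authors' deposited table Axin2 stood at 0.85 ± 0.36 (adjusted p = 0.13) and Tcf7l2 at 0.60 ± 0.27 (adjusted p = 0.16). There the ligases Rnf43 and Znrf3 stood, by the authors' deposited table, at 0.44 ± 0.33 (adjusted p = 0.42) and 0.35 ± 0.23 (adjusted p = 0.34), Apcdd1 at 0.59 ± 0.49 (adjusted p = 0.49) and Lgr6 at 0.45 ± 0.80 (adjusted p = 0.8). These genes were picked out above for low values in the same placebo lesions, which enter here with the opposite sign, so their values here are no independent measure.

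The carrier Wls, most Frizzled receptors and Ctnnb1 had negative values under GZ21T. Wls stood at -0.73 ± 0.26 (adjusted p = 0.075), Fzd1 at -0.78 ± 0.29 (adjusted p = 0.087) and Ctnnb1 at -0.41 ± 0.15 (adjusted p = 0.088) by the authors' deposited table, and these 3 of 29 were lower at an adjusted p under 0.1, where 6.44% of all genes tested were. Fzd5 stood at -0.73 ± 0.30 (adjusted p = 0.12) there by the authors' deposited table, and 7 of the 8 Frizzled receptors tested were below 0 with a median of -0.46, against 55.2% below 0 over all genes tested. Wnt11 and Wnt3 marked the ends of the 7 ligands tested of 12, at -0.76 ± 0.35 (adjusted p = 0.16) and 0.52 ± 0.34 (adjusted p = 0.36), and Wnt7b stood at -0.46 ± 0.38 (adjusted p = 0.48) by the authors' deposited table. The inhibitor Dkk3 had the lowest value of the 29, -0.86 ± 0.41 (adjusted p = 0.18), by the authors' deposited table. The same placebo lesions gave the values in lesional over non-UV skin and enter here with the opposite sign. The values of these genes are thus no independent measure either. All 15 hair shaft genes tested had positive values, with a median of 1.65, 0 called and 2 at an unadjusted p under 0.05. Of 6 suprabasal keratinocyte genes, with a median of 1.28, 3 rose, and the median of the endothelial genes was -0.94. Their part in the WNT values was not tested.

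**Figure D4:**
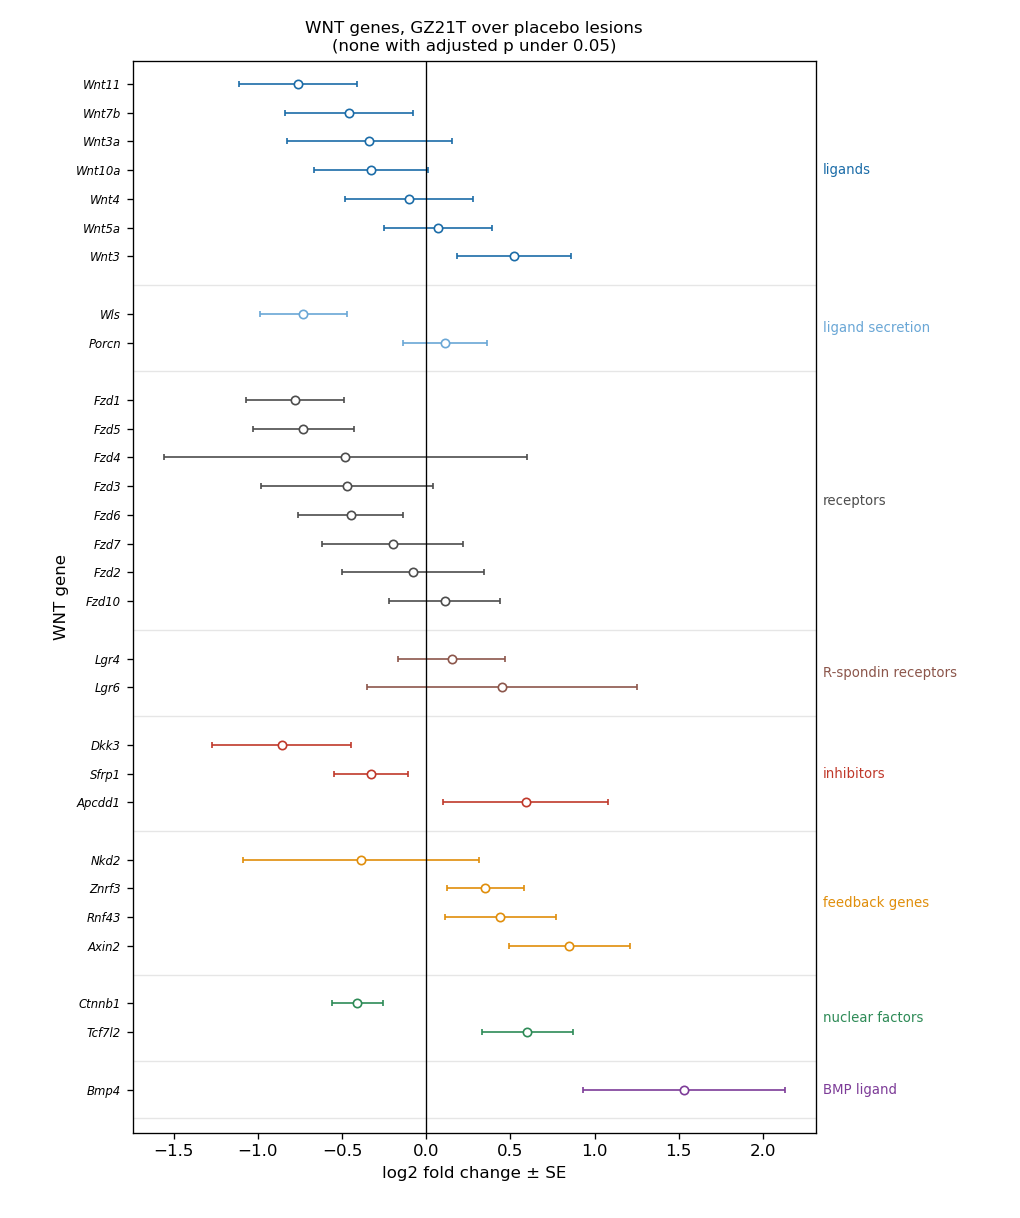
Log2 fold change (x axis, points with bars of 1 SE) of the 29 WNT genes tested in GZ21T over placebo lesions, by role and ordered by size. Bmp4 at 1.53 and Axin2 at 0.85 stand at the right end, Dkk3 at -0.86 at the left end, and no gene was called.

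GZ21T-treated lesions were last set against non-lesional skin of placebo mice, by a contrast derived from 3 tables. Of 29 WNT genes 0 were called, with 2 at an unadjusted p under 0.05, and of all 10899 genes 0% were called (normal tails with Benjamini-Hochberg adjustment, 352 at an unadjusted p under 0.05). Wnt7b stood at -0.94 ± 0.38 and Wnt3 at -0.68 ± 0.34, both with an adjusted p of 1. Axin2 stood at -0.44 ± 0.35, with a 95% interval from -1.13 to 0.26, and Bmp4 at -0.51 ± 0.57, with one from -1.62 to 0.61. A difference from non-lesional skin was thus not detected for either. The null spread taken from the genes was 0.83 times that of theory in this contrast, so its test may be conservative. With that spread 3 of all genes were called higher and 7 lower. Of the 29, Lgr6 had the lowest value, -1.29 ± 0.79, and Nkd2 the highest, 0.71 ± 0.72. The median of the 29 was -0.22, against -0.01 over all genes tested.

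The genes called lower lie on 6 chromosomes of GRCm38 in the GENCODE annotation. Axin2 is at chromosome 11, 108920349 to 108950783, plus strand, and Wnt3, Rnf43 and Znrf3 lie on the same chromosome, at 103774150 to 103817957 (plus), 87662722 to 87735539 (plus) and 5276324 to 5444847 (minus). Bmp4 is at chromosome 14, 46383520 to 46390669, minus strand, and Lgr6 at chromosome 1, 134983301 to 135105276, minus strand. Wnt7b and Wnt10b are on chromosome 15, at 85535437 to 85582473 and 98770712 to 98778150, both minus strand. Apcdd1 is at chromosome 18, 62922231 to 62961179, plus strand, and Tcf7l2 at chromosome 19, 55741820 to 55933654, plus strand. Axin2, Bmp4, Wnt7b and Rnf43 each overlap annotated genes on the other strand, and Tcf7l2 overlaps Ppnr on its own. The library kit marks strand, but whether counting used it is not given in the sources used here, so such reads may have been counted together. Of the genes on the other strand AU022754, opposite Wnt7b, has a fold change, -1.63 ± 0.92 (adjusted p = 0.21) in lesional over non-UV skin in the authors' deposited table.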

How the data were processed

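A stranded TruSeq kit for total RNA was used, per the labels' protocols. The submitters' processing notes name Trim Galore, DESeq2 and the build GRCm38 (mm10), while, for the aligner, the counter, the versions and the formula of the model, nothing is given in the sources used here. Per the file headers, the authors deposited 4 tables that hold log2 fold changes, Wald statistics (a score, the fold change over its SE) and p-values with adjusted p-values. No column of values per library was left unused (0). The 48 genes, the other gene lists and the tests were chosen with earlier results of these data known.

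Date-like symbols (25) were removed. The table named for perilesional and lesional skin has lesional and back skin in its header and was used so: of 1195 genes whose fold change from non-lesional to perilesional skin is exactly 0, 271 have a negative value there, which a perilesional reference without reads would not allow. Back was taken as the non-UV group, by elimination. Lesional over perilesional skin is the deposited lesional over non-UV value minus the 2 steps before it. Its variance takes the squared SE of the first, subtracts that of the step from non-UV to non-lesional skin and adds that of the step from there to perilesional skin. GZ21T lesions over non-lesional skin were built likewise. This is exact for 1 fit with the group alone and independent libraries, which the labels do not state. Among 817 genes with absolute log2 fold changes under 0.2 in every table the median SE ratios between tables were 0.979, 0.996 and 0.997. Derived p-values are normal tails adjusted over genes with an adjusted p in all 3 tables used. The script was run on simulated data built with independent groups, which cannot check that assumption. Values were printed for called genes, for Axin2, Lef1, Lgr5, Lgr6, Ctnnb1 and Bmp4, and for the ends of each role; further genes were chosen after their values were seen. The alternatives were other thresholds, other filters, centring, a null spread taken from the genes, and larger SEs for derived contrasts. Python 3.11.15, pandas 2.3.3 and scipy 1.17.1 were used.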

Additional observations from a re-analysis of the deposited data

How the results depend on the processing

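The count of WNT genes lower in lesional over non-UV skin moved from 10 to 6 at an adjusted p under 0.01 and to 0 with a null spread taken from the genes themselves, which was 1.92 times that of theory there. The number higher moved from 0 to 2 at an adjusted p under 0.1 (13.8% of all genes), and in GZ21T over placebo lesions the number lower moved from 0 to 3 of 29 at that threshold (6.44% of all genes). In GZ21T over placebo lesions the null spread was 1.64 times that of theory, and 0 of all 10899 genes were called with it. Genes that truly differ also widen such a spread, and their share in it was not tested. Without a filter on low counts 9 genes were lower in lesional over non-UV skin, with centring 11, and 10 with only genes that have an adjusted p in each table, Wnt5a standing in place of Wnt10b, which that filter leaves out. Benjamini-Hochberg adjustment of lesional over perilesional skin over all genes tested in lesional over non-UV skin, an alternative chosen after seeing the data, gave 0 called as well, and so did both larger SEs. For the 121 values of genes called, named by rule or at the ends of a role, 822 values under an alternative were computed, of which 803 kept their sign and side of the threshold, 15 lost the call, 4 gained one and 0 changed sign. Outside these, centring turned the sign of Fzd6 and Fzd7 in lesional over non-UV skin, of Fzd1 in non-lesional over non-UV skin and of Wnt5b in perilesional over non-lesional skin, none of them called. The cause of these moves was not tested, apart from the thresholds and the larger null spread, which act by their construction. No paired analysis was possible because the tables hold no values per library, although the placebo groups share the numbers 1 to 3, and leaving out replicates could not be run for the same reason. Depth per library is unknown, and the median SE of the WNT genes, from 0.34 to 0.42 over the 6 comparisons, limits what could be detected.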
